A study of Mus musculus with 12 samples.

Results

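The interferon-inducible GTPases described here were 10 genes, Igtp, Irgm1, Irgm2, Iigp1, Tgtp1, Tgtp2, Gbp2, Gbp3, Gbp5 and Gbp7, of 52858 genes listed in the files. They were taken by gene name. All 10 passed the filter on low values, which left 15240 genes for testing. 6 belonged to the immunity-related GTPases (IRG: Igtp, Irgm1, Irgm2, Iigp1, Tgtp1 and Tgtp2) and 4 to the guanylate-binding proteins (GBP: Gbp2, Gbp3, Gbp5 and Gbp7). RNA was sequenced from mouse hearts in 4 groups of 3 libraries. Hearts of C57BL/6J mice made up the C57-non-IR and C57-IR groups. Hearts of Slit2-Tg mice made up the other two, Slit2-non-IR and Slit2-IR. Genotype was stated in the labels, and ischemia-reperfusion (IR) or its absence was read from the letter codes in the sample titles. Slit2-Tg mice carried full-length human Slit2 cDNA under the CMV promoter, were made in C57 × CBA F1 oocytes, and were screened as heterozygotes. The CMV promoter is not specific to a cell type of the heart. All animals were adult males, and all hearts were isolated and perfused with buffer on a Langendorff apparatus. IR hearts passed through stable perfusion, no-flow global ischemia and reperfusion, while non-IR hearts were perfused without interruption for the same total time. The labels did not state whether the 3 libraries of a group came from separate mice, so p-values measured only the spread between these libraries.

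IRG and GBP proteins are GTPases that mouse cells make in response to interferons, above all interferon-gamma, and they are best known for attacking the vacuoles in which intracellular parasites and bacteria live. Interferon signals reach the promoters of these genes through gamma-activated sites (GAS) and through interferon-stimulated response elements (ISRE), to which the inducible transcription factor IRF1 binds. In the heart, endothelial cells, macrophages, fibroblasts and cardiomyocytes can all respond to interferon, and RNA of heart tissue mixes these cell types.

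The promoter sequences are shown because interferon signals reach genes of this family through GAS and ISRE elements, and letter matches to both were searched. RefSeq promoter entries (GRCm38.p6) were found for 9 of the 10 genes, with none for Iigp1. Each stretch of 30 bases below lies upstream of the RefSeq transcription start and is written 5′ to 3′ on the gene's own strand. Capitals mark matches, on either strand, to an ISRE-type motif, GAAANNGAAA, or to a GAS-type motif, TTCNNNGAA.
Igtp, chr11:58199506-58199535, plus strand: gccatTTCTAGGAActGAAACTGAAAgctg
Irgm2, chr11:58214897-58214926, plus strand: gccatTTCCAGGAActGAAACTGAAAgctg
Tgtp1, chr11:48992310-48992339, minus strand: gccatTTCCAGGAAtcGAAACTGAAAccta
Tgtp2, chr11:49064269-49064298, minus strand: gccatTTCCAGGAAtcGAAACCGAAAccta
Irgm1, chr11:48871428-48871457, minus strand: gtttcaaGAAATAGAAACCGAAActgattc
Gbp2, chr3:142620594-142620623, plus strand: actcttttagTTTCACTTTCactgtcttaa
Gbp3, chr3:142559992-142560021, plus strand: gacacagTTTCAGTTTCTATTTCccagatc
Gbp5, chr3:142496759-142496788, plus strand: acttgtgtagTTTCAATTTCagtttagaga
Gbp7, chr3:142530273-142530302, plus strand: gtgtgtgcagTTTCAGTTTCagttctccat

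In Igtp, Irgm2, Tgtp1 and Tgtp2 a GAS-type match and an ISRE-type match stood side by side, and the 4 windows were the same at 24 of 30 bases. The Igtp and Irgm2 windows differed at 1 base, as did those of Tgtp1 and Tgtp2. In Irgm1 and Gbp3 a pair of overlapping ISRE-type matches was found, and in all 4 GBP genes the ISRE-type match lay on the reverse strand. Over the 250 bases upstream of the start, 9 of 9 genes held the ISRE-type motif in at least 1 entry, against 2.98% of all 32851 promoter entries searched. These genes had 10 entries, and the second entry of Gbp3 held neither motif. The GAS-type motif was present in 6 of 9 genes, against 7.02% of all entries, and both motifs together in the same 6 genes (Igtp, Irgm2, Tgtp1, Tgtp2, Gbp5 and Gbp7), against 0.332%. These are matches of letters, and binding was not measured.

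**Figure D1:**
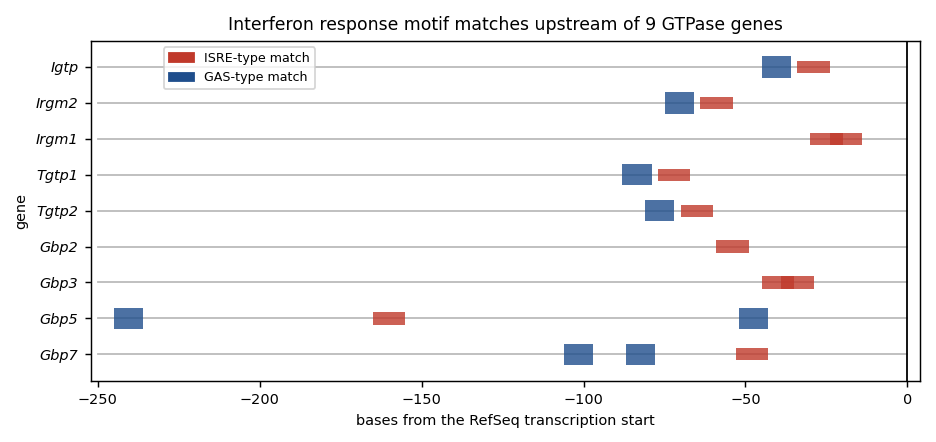
Matches to the ISRE-type (red) and GAS-type (blue) motifs in the upstream windows of 9 GTPase genes, by distance in bases from the RefSeq transcription start. In Igtp, Irgm2, Tgtp1 and Tgtp2 the matches form a close pair near the start, whereas Gbp5 has its ISRE-type match farther upstream.

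The genes also lay close together. The files placed Igtp (ENSMUSG00000078853) at chr11:58199556-58207591 and Irgm2 (ENSMUSG00000069874) at chr11:58199618-58222782, both on the plus strand, so that the annotated spans overlap. Irgm1 (ENSMUSG00000046879, chr11:48861968-48871683), Tgtp1 (ENSMUSG00000078922, chr11:48985327-48994172) and Tgtp2 (ENSMUSG00000078921, chr11:49057194-49064206) were on the minus strand of the same chromosome. Gbp5 (ENSMUSG00000105504, chr3:142493978-142522344), Gbp7 (ENSMUSG00000040253, chr3:142530342-142550149), Gbp3 (ENSMUSG00000028268, chr3:142560026-142573209) and Gbp2 (ENSMUSG00000028270, chr3:142620602-142638008) followed one another on the plus strand of chromosome 3. Iigp1 (ENSMUSG00000054072) was on chromosome 18. Sequence was shared between some of them, and Tgtp1 and Tgtp2 were the closest copies. Of all 100-base stretches of the Tgtp1 transcripts, 70.3% occurred unchanged in Tgtp2, so the split of reads between these copies is uncertain. Igtp and Irgm2 shared 162 exon bases on the same strand (8.01% of Igtp and 4.39% of Irgm2), and Gbp7 shared 637 with the pseudogene Gm43802 (11.3% of Gbp7). Tgtp1 shared 223 with Gm12185, a further IRG gene. No shared 100-base stretch was found for Irgm1, Gbp2 or Iigp1.

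Expression is given as FPKM, as deposited, which is fragments scaled to gene length and between libraries. The scale between libraries followed median-of-ratios size factors rather than the total of reads. The reads behind these values numbered 16601154 to 24841291 per library. All 10 GTPases were detected in every library, with 22 to 2342 reads per gene. Iigp1 was the most abundant, with a mean over the 12 libraries of 16.9 FPKM and a range of 9.65 to 38.0. Its length in the files was 3121 bases, against 5823 exon bases in GENCODE vM21, and the other 9 genes had the same length in both, so its place in the order rests on the length used. Gbp2 (mean 8.54 FPKM), Igtp (6.70), Irgm2 (5.58), Gbp3 (4.57), Irgm1 (3.46), Tgtp2 (3.05), Gbp7 (2.97), Gbp5 (1.78) and Tgtp1 (0.948) followed. Neighbours in this order were mostly separated within a library, since each gene exceeded the next in 10 to 12 of 12 libraries. The exception was Tgtp2, which exceeded Gbp7 in 6 of 12 libraries, so that this pair could not be ordered.

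**Figure D2:**
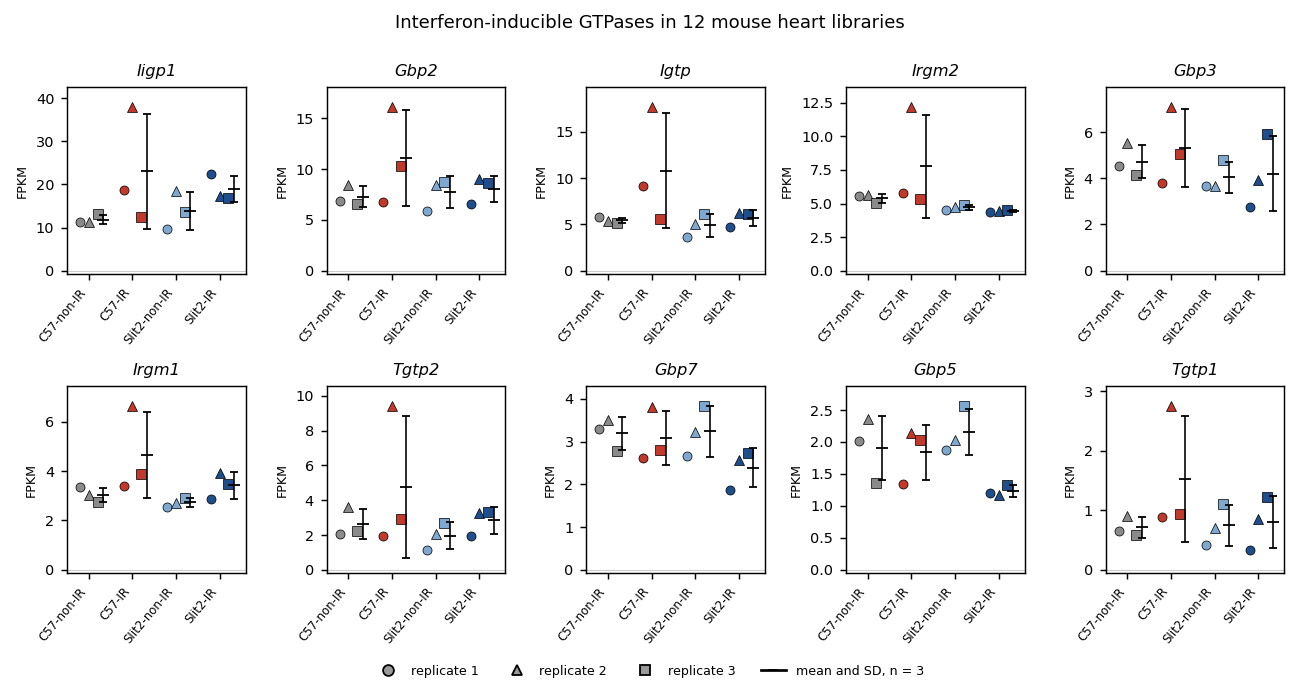
FPKM of each GTPase in the 12 libraries, by group, with the mean and SD of 3 libraries (black). C57-IR replicate 2 (red triangle) lies above every other library for 8 of the 10 genes, and the 3 Slit2-IR libraries lie lowest for Irgm2 and Gbp5.

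A single library dominated the pattern of the family across the series. In C57-IR replicate 2, 8 of the 10 GTPases reached the highest value of all 12 libraries, whereas 10.1% of all tested genes had their highest value there. The remaining 2, Gbp5 and Gbp7, were highest in Slit2-non-IR replicate 3 (2.57 and 3.83 FPKM), as were 4.25% of all tested genes. The summed FPKM of the 10 genes was 116 in C57-IR replicate 2, compared with 54.4 and 51.2 in C57-IR replicates 1 and 3. In the other groups the sum was 45.2, 49.6 and 43.7 in C57-non-IR, 36.0, 51.0 and 51.4 in Slit2-non-IR, and 49.1, 52.7 and 54.2 in Slit2-IR. The C57-IR mean of the sum was 73.9 ± 36.5 (SD, n = 3), against 46.2 ± 3.08 in C57-non-IR, 46.2 ± 8.80 in Slit2-non-IR and 52.0 ± 2.64 in Slit2-IR. In the 11 libraries other than C57-IR replicate 2, the sum ran from 36.0 to 54.4.

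The excess in C57-IR replicate 2 was larger for 5 of the 6 IRG genes than for any GBP gene. Relative to the mean of C57-IR replicates 1 and 3, Tgtp2 was 3.87-fold higher, Tgtp1 2.99-fold, Iigp1 2.45-fold, Igtp 2.41-fold, Irgm2 2.20-fold and Irgm1 1.82-fold. Among the GBP genes the ratio was 1.89 for Gbp2, 1.61 for Gbp3, 1.40 for Gbp7 and 1.27 for Gbp5. The median ratio was 2.04 for the 10 GTPases and 0.998 for all tested genes, and 7 of 10 were at least 1.5 times both other C57-IR libraries, against 3.82% of all tested genes. Outside the members, the ratio ran from 0.749 to 4.19 among other GTPases of the IRG, GBP, Mx and giant GTPase families. Of these, Gm12250 (4.19, 76 reads) and Gm12185 (48 reads) exceeded every member. Among interferon-gamma targets the ratio ran from 1.01 to 3.32. The excess was therefore not particular to the 10 members. As whole lists, related genes had smaller median ratios in the same library. The median ratio was 1.62 for 16 interferon-gamma targets, 1.48 for 13 JAK-STAT and IRF factors, 1.47 for 16 other GTPases of the IRG, GBP, Mx and giant GTPase families, and 1.23 for 19 type I interferon targets.

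Cell type markers were compared over the same libraries, because fewer cells of a type and less RNA per cell cannot be told apart in RNA of heart tissue. In C57-IR replicate 2 the summed FPKM was 206 for 7 macrophage markers, within the 104 to 236 of all libraries, and 203 for 6 endothelial markers, within 147 to 243. For 10 T and NK cell markers, which label the main source cells of interferon-gamma, the sum was 0.830 FPKM in this library and 0.353 to 1.06 over all libraries. The 4 neutrophil markers summed to 0.0834, within 0 to 1.03, and the 4 adipose markers to 13.2, near the top of a range of 0 to 16.5. Cardiomyocyte markers summed to 9526 to 14446 FPKM over all libraries. The 4 atrial markers summed to 227 in C57-IR replicate 2, against 98.2 and 85.3 in C57-IR replicates 1 and 3 and 19.9 to 86.9 in C57-non-IR. Of these, Myl7, Myl4 and Sln were 25.5, 21.1 and 24.4 times the mean of the other C57-IR libraries, and Nppa was 0.940 times. Over all libraries the atrial sum was highest, at 1650, in Slit2-IR replicate 1. The 5 lung markers summed to 9.51 in C57-IR replicate 2, to 0.246 and 11.2 in C57-IR replicates 1 and 3, and to 0.121 to 12.4 over all libraries. The part of adipose, atrial or lung tissue in the results below was not tested.

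**Figure D3:**
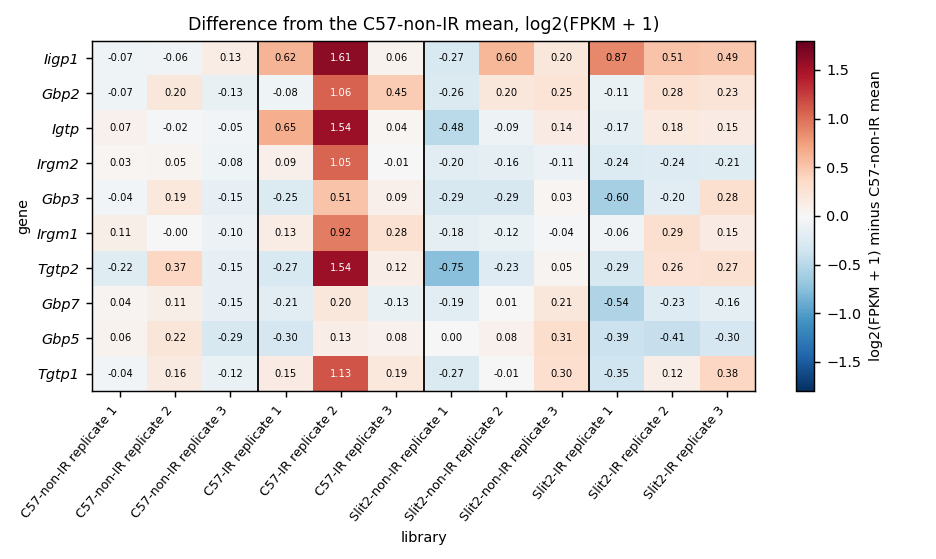
Difference of each library from the C57-non-IR mean, in log2(FPKM + 1), for the 10 GTPases (rows) in the 12 libraries (columns). The column of C57-IR replicate 2 reaches 1.61 for Iigp1, 1.54 for Igtp and 1.54 for Tgtp2, while Gbp5 and Irgm2 are below 0 in all 3 Slit2-IR libraries.

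The first comparison addressed the response of C57BL/6J hearts to IR. None of the 10 GTPases passed the adjusted threshold in limma's moderated test on log2(FPKM + 1), where 0.407% of all tested genes were called higher and 0.0525% lower, and none was called by limma-voom on recovered reads. At an unadjusted p under 0.05, 3 of 10 were higher (Iigp1, Igtp and Irgm1), against 4.55% of all tested genes, and none was lower (4.42%). The median difference of the 10 genes was 0.45 on the log2(FPKM + 1) scale and 0.0015 for all tested genes, and 8 of 10 were higher in C57-IR, against 50.5% of all genes.

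Iigp1, the IRG protein IIGP1 (Irga6) that coats parasite vacuoles, was at 11.2, 11.3 and 13.1 FPKM in C57-non-IR and at 18.7, 38.0 and 12.4 in C57-IR. C57-IR replicate 3 lay inside the C57-non-IR range, so the groups overlapped. The difference was 0.76 (95% interval 0.04 to 1.48, limma adjusted p = 0.508). Igtp, which encodes the regulatory IRG protein Irgm3, was at 5.75, 5.32 and 5.20 FPKM in C57-non-IR and at 9.10, 17.7 and 5.59 in C57-IR. The lowest C57-IR library again lay within the C57-non-IR values. Its difference was 0.74 (0.08 to 1.41, limma adjusted p = 0.462).

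Irgm1, a regulatory IRG protein that keeps other IRG proteins off the cell's own membranes, was at 3.33, 3.01 and 2.75 FPKM in C57-non-IR and at 3.41, 6.64 and 3.88 in C57-IR. It was the only GTPase whose C57-IR values all exceeded its C57-non-IR values, a pattern shown upward by 6.75% of all tested genes and downward, with no member, by 7.01%. The means differed 1.53-fold, and the difference of 0.44 (0.05 to 0.84) had a limma adjusted p of 0.458.

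Irgm2, the remaining regulatory IRG protein, was at 5.54, 5.61 and 5.03 FPKM in C57-non-IR and at 5.79, 12.2 and 5.33 in C57-IR. Tgtp2, a T-cell-specific GTPase by its gene name and an IRG effector, was at 2.08, 3.63 and 2.22 FPKM in C57-non-IR and at 1.97, 9.42 and 2.89 in C57-IR. Its near copy Tgtp1 was at 0.659, 0.911 and 0.577 FPKM in C57-non-IR and at 0.894, 2.75 and 0.944 in C57-IR. In all 3 genes C57-IR replicate 2 was the highest library, and another C57-IR library lay within the C57-non-IR range. The differences were 0.37 for Irgm2, 0.46 for Tgtp2 and 0.49 for Tgtp1, with limma adjusted p from 0.684 to 0.886.

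Of the GBP genes, Gbp2 was at 6.84, 8.47 and 6.54 FPKM in C57-non-IR and at 6.81, 16.2 and 10.3 in C57-IR. Gbp3 was at 4.51, 5.51 and 4.12 and at 3.77, 7.09 and 5.06. These groups overlapped, and the differences were 0.48 for Gbp2 and 0.12 for Gbp3. Gbp5, which promotes inflammasome assembly, was at 2.01, 2.35 and 1.36 FPKM in C57-non-IR and at 1.34, 2.14 and 2.03 in C57-IR. Gbp7 was at 3.30, 3.50 and 2.77 and at 2.62, 3.80 and 2.81. Gbp5 (-0.03) and Gbp7 (-0.05) were the members that were not higher in C57-IR.

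Without C57-IR replicate 2 the pattern shrank. The median difference fell from 0.45 to 0.10, and 6 of 10 genes were higher, against 50.2% of all tested genes. None was below an unadjusted p of 0.05, against 925 of 15240 tested genes in either direction. The differences became 0.34 for Iigp1, 0.35 for Igtp, 0.20 for Irgm1, 0.19 for Gbp2 and 0.17 for Tgtp1, and they were 0.04 for Irgm2, -0.07 for Tgtp2, -0.08 for Gbp3, -0.11 for Gbp5 and -0.17 for Gbp7. The highest Iigp1 value outside this library was 22.4 FPKM, in a Slit2-IR heart.

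**Figure D4:**
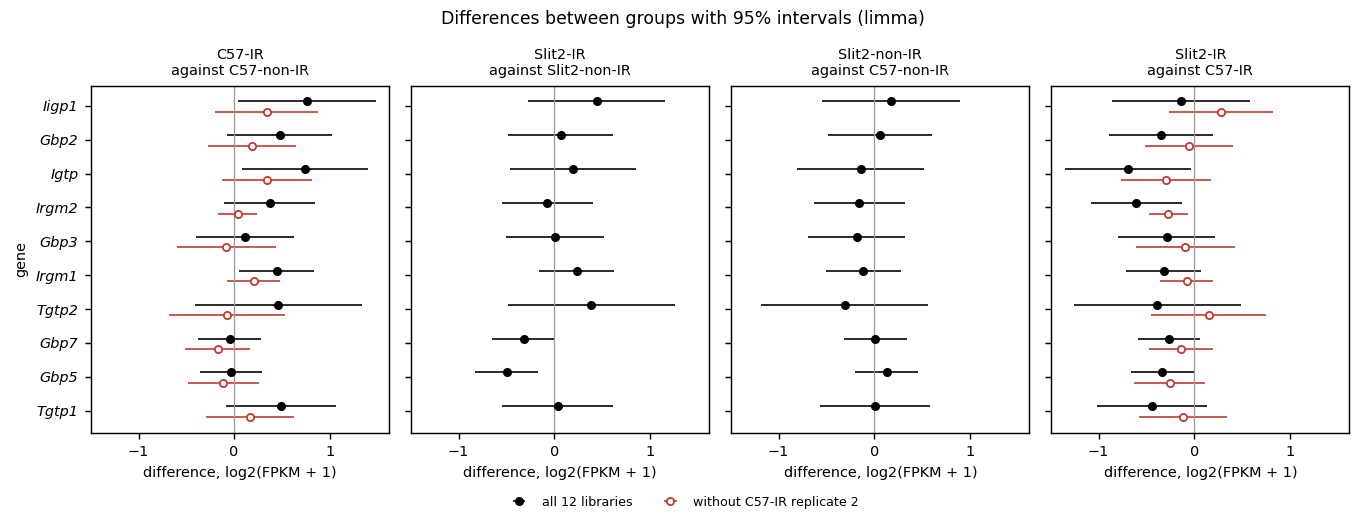
Differences of the 10 GTPases in the 4 pairwise comparisons on the log2(FPKM + 1) scale, with 95% intervals from limma (filled circles, all 12 libraries). Open circles, drawn for the comparisons that use C57-IR, leave out C57-IR replicate 2. Most intervals cross 0. Leaving that library out moves the median of the members toward 0 in the comparisons that use C57-IR, but some genes cross 0 or move away from it.

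In Slit2-Tg hearts, IR was compared with uninterrupted perfusion in the same way. None of the 10 GTPases was called by limma (0.446% of all tested genes higher, 0.0787% lower) or by limma-voom. At an unadjusted p under 0.05, Gbp5 was lower (5.07% of all tested genes) and no member was higher (6.15%). The median difference of the 10 genes was 0.05, with 7 of 10 higher, against 51.6% of all genes. With the replicate number as a block, 202 genes instead of 80 were called over the whole table and 2 members instead of 1 were below an unadjusted p of 0.05, but no member passed the adjusted threshold.

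Gbp5 was at 1.88, 2.03 and 2.57 FPKM in Slit2-non-IR and at 1.19, 1.16 and 1.33 in Slit2-IR. The groups did not overlap, and the ratio of the means was 0.570. The difference was -0.50 (-0.83 to -0.17, limma adjusted p = 0.190). Gbp7 moved in the same direction, at 2.66, 3.21 and 3.83 FPKM in Slit2-non-IR and 1.88, 2.56 and 2.74 in Slit2-IR, but these groups overlapped at their edges. Its difference was -0.32 (limma adjusted p = 0.458). Irgm2 was at 4.55, 4.71 and 4.91 FPKM in Slit2-non-IR and at 4.39, 4.41 and 4.51 in Slit2-IR, which did not overlap but differed by a ratio of only 0.940. Non-overlap in the lower direction was thus found for 2 of 10 members and for 8.30% of all tested genes.

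The other members overlapped between these groups. Iigp1 was at 9.65, 18.4 and 13.7 FPKM in Slit2-non-IR and at 22.4, 17.3 and 17.0 in Slit2-IR, with a difference of 0.45 (limma adjusted p = 0.695). Igtp was at 3.60, 5.04 and 6.08 and at 4.70, 6.27 and 6.10 (0.19), and Irgm1 at 2.56, 2.72 and 2.92 and at 2.87, 3.93 and 3.46 (0.24). Tgtp2 was at 1.13, 2.05 and 2.70 and at 1.93, 3.28 and 3.31 (0.39). Gbp2 was at 5.90, 8.48 and 8.78 and at 6.62, 9.0 and 8.65 (0.07). Gbp3 (0.01) and Tgtp1 (0.04) differed least. Gbp3 ranged from 3.65 to 4.80 FPKM in Slit2-non-IR and from 2.75 to 5.92 in Slit2-IR, and Tgtp1 from 0.421 to 1.11 and from 0.338 to 1.22. The directions of Gbp2 and Gbp3 turned under both other scalings of the libraries.

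Slit2-non-IR hearts were next compared with C57-non-IR hearts, which asks whether the level of these genes differed between the mouse lines without IR. The transgene and any other difference between the lines, such as remaining CBA sequence, cannot be told apart here. None of the 10 GTPases was called (0.0394% of all tested genes higher, 0% lower) by limma or by limma-voom, and none was below an unadjusted p of 0.05 (1.42% higher, 1.77% lower). 5 of 10 members were higher, against 48.9% of all genes. The differences ran from -0.31 for Tgtp2 to 0.18 for Iigp1, with a limma adjusted p of 0.9995 for each gene. Their intervals were wide, for example -0.54 to 0.90 for Iigp1. Irgm2 alone did not overlap, with its Slit2-non-IR values below the C57-non-IR values and a ratio of the means of 0.876, a pattern found downward for 4.57% of all tested genes and upward, with no member, for 4.63%.

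After IR, Slit2-Tg hearts were compared with C57BL/6J hearts. All 10 GTPases had a lower estimate in Slit2-IR than in C57-IR (49.9% of all tested genes were higher), with a median difference of -0.34 against -0.00023 for all tested genes, but none was called by limma (0.0328% of all tested genes higher, 0.0131% lower, adjusted p = 0.9996 for each member) or by limma-voom. At an unadjusted p under 0.05, 3 of 10 were lower (Igtp, Irgm2 and Gbp5), against 1.38% of all tested genes. Irgm2 differed by -0.61 (-1.08 to -0.13), Igtp by -0.69 (-1.35 to -0.03) and Gbp5 by -0.34 (-0.66 to -0.01). With the replicate number as a block, Gbp5 rose above that level (limma unadjusted p = 0.0512). Irgm2 (0.0148) and Igtp (0.0378) stayed below it. Irgm2 and Gbp5 did not overlap between the groups, with ratios of the means of 0.571 and 0.670, and 3.44% of all tested genes did not overlap in this direction and 3.03%, with no member, in the other. The remaining differences were -0.14 for Iigp1, -0.26 for Gbp7, -0.29 for Gbp3, -0.32 for Irgm1, -0.35 for Gbp2, -0.39 for Tgtp2 and -0.44 for Tgtp1. Marker estimates of other cell types in the same comparison were as follows. Macrophage markers (0 of 7 higher, median -0.14), adipose markers (0 of 4, -0.39) and the 3 tested lung markers (none higher, -1.24) had lower estimates in Slit2-IR, and atrial markers higher ones (4 of 4, 1.13). The summed atrial markers were at 1650, 97.4 and 67.1 FPKM in Slit2-IR and at 98.2, 227 and 85.3 in C57-IR. Only Slit2-IR replicate 1 lay above the C57-IR range. Endothelial markers were divided (3 of 6 higher, -0.0008). The summed lung markers were at 0.121 to 0.257 FPKM in Slit2-IR and 0.246 to 11.2 in C57-IR, and their part in the result was not tested. This comparison and the one between C57-IR and C57-non-IR share the C57-IR libraries, so they are not independent.

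Without C57-IR replicate 2, the median difference was -0.11 and 8 of 10 members were lower, where 51.2% of all tested genes were higher. Iigp1 (0.28) and Tgtp2 (0.15) were then higher in Slit2-IR. Irgm2 remained below an unadjusted p of 0.05, at -0.27, while Igtp (-0.29) and Gbp5 (-0.26) did not. Of all 15240 tested genes, 531 were below it in either direction. The difference between the IR responses of the genotypes was itself tested. Its estimate was negative for all 10 genes (51.1% of all tested genes were positive), with a median of -0.36, and none was called (0% of all tested genes in either direction, adjusted p = 0.9998 for Gbp5), by limma or by limma-voom. Gbp5 (-0.47, -0.93 to -0.0006) was the member below an unadjusted p of 0.05, against 0.787% of all tested genes in this direction. With the replicate number as a block, Gbp5 was no longer below it (limma unadjusted p = 0.0550). For this difference between the IR responses, macrophage (0 of 7 positive, median -0.26), adipose (0 of 4, -0.84) and tested lung markers (0 of 3, -0.35) also had negative estimates. Endothelial (6 of 6 positive, 0.26) and atrial markers (3 of 4, 0.84) had mostly positive ones, the atrial estimates including the high sum of Slit2-IR replicate 1 (1650 FPKM). Fibroblast (1 of 4, -0.20), cardiomyocyte (2 of 5, -0.03) and tested blood markers (0 of 3, -0.25) had negative medians. The part of any of these in the result was not tested. Without C57-IR replicate 2 the members' median became -0.12, and 4 of 10 were positive, against 52% of all tested genes. No member was then below an unadjusted p of 0.05, against 399 of 15240 tested genes in either direction.

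Irgm2 was separated by genotype, in which the transgene and other differences between the mouse lines cannot be told apart. All 6 Slit2-Tg libraries (4.39 to 4.91 FPKM) lay below all 6 C57BL/6J libraries (5.03 to 12.2 FPKM), which was the case for 0.177% of all tested genes. The nearest libraries of the genotypes, at 4.91 and 5.03 FPKM, were close to each other. Over both perfusions its difference was -0.38 (-0.72 to -0.05, limma adjusted p = 0.999), and it was the member below an unadjusted p of 0.05 in this comparison (2.13% of all tested genes lower). With C57-IR replicate 2 left out, the difference of Irgm2 was -0.21. 1 of 10 members, Iigp1, had a higher estimate in Slit2-Tg hearts there (0.02), against 49.3% of all genes. The separation was kept when libraries were scaled to their total outside mitochondrial genes, and it was lost when they were scaled to the total of all genes. Igtp, which shares exon bases with Irgm2, did not separate in this way, and the ratio of Igtp to Irgm2 in FPKM ranged from 0.792 to 1.57. The 3 Slit2-IR libraries were also below all 9 others for Irgm2 and for Gbp5 (0.630% of all tested genes), which was lost for both genes under either other scaling.

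Over both genotypes, IR hearts were compared with non-IR hearts with 6 libraries each. None of the 10 GTPases was called by limma (2.34% of all tested genes higher, 1.15% lower) or by limma-voom. At an unadjusted p under 0.05, 3 were higher (Iigp1, Igtp and Irgm1; 7.93% of all tested genes) and Gbp5 was lower (7.97%). 8 of 10 members were higher, against 51.3% of all genes. Irgm1 differed by 0.34 (limma adjusted p = 0.197), Iigp1 by 0.60 (0.216), Igtp by 0.47 (0.313) and Gbp5 by -0.26 (0.237). With C57-IR replicate 2 left out these became 0.22, 0.39, 0.27 and -0.30. The median of the 10 members fell from 0.27 to 0.11, and 6 of 10 were higher (51.1% of all tested genes). In that fit 4 members were below an unadjusted p of 0.05, against 1925 of 15240 tested genes in either direction. On leaving out any single library the number of such members was 1 to 4.

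Other genes of the interferon pathway were described from lists of receptors, signal transducers, inhibitors and targets. The ligands themselves were near the limit of detection. Ifng, which encodes interferon-gamma, had 6, 3 and 0 reads in C57-IR, 1, 1 and 0 in Slit2-IR and 0 in all 6 non-IR libraries. Ifnb1, which encodes interferon-beta, had 2, 12 and 3 reads in C57-IR, 0, 7 and 3 in Slit2-IR, 1, 0 and 0 in Slit2-non-IR and 0 in C57-non-IR. None of 7 ligand genes passed the filter on low values, so none was tested. The receptor chains were abundant. Ifngr1 ranged from 12.2 to 24.5 FPKM and Ifngr2 from 33.1 to 46.3, and neither of them passed the adjusted threshold over both genotypes (limma adjusted p = 0.713 and 0.260).

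Of 13 JAK-STAT and IRF factors, Irf1 and Irf8 rose with IR over both genotypes and none fell, where 2.34% of all tested genes rose and 1.15% fell. The median difference of the 13 genes was 0.05. Irf1 was at 7.24, 6.53 and 6.13 FPKM in C57-non-IR, 12.8, 29.1 and 14.7 in C57-IR, 3.84, 5.55 and 7.06 in Slit2-non-IR and 15.7, 20.2 and 13.7 in Slit2-IR. Every IR library lay above every non-IR library, with a difference of 1.37 (limma adjusted p = 0.00393). Irf8 was at 1.11, 1.40 and 1.24 FPKM in C57-non-IR, 2.44, 4.15 and 3.17 in C57-IR, 1.08, 1.30 and 1.27 in Slit2-non-IR and 2.47, 3.68 and 2.10 in Slit2-IR, with a difference of 0.82 (0.00419). In the pairwise comparisons Irf8 was called in C57BL/6J hearts (0.90, limma adjusted p = 0.0487) and Irf1 in Slit2-Tg hearts (1.45, 0.0491). The Irf8 call was lost on leaving out any 1 of 9 libraries: all 3 of C57-non-IR, all 3 of Slit2-non-IR, C57-IR replicates 2 and 3 and Slit2-IR replicate 1 (limma adjusted p of 0.0596 to 0.205). The Irf1 call was lost on leaving out any non-IR or Slit2-IR library or C57-IR replicate 3 (0.0602 to 0.170). With the replicate number as a block, Irf8 also passed in Slit2-Tg hearts (0.74, limma adjusted p = 0.0258, against 0.0819 without the block).

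Among the 6 feedback inhibitors, Socs3 rose over both genotypes (2.34% of all tested genes) and none fell (1.15%). It was chosen for description after its values were seen, as were Icam1, Casp4 and Trim21. Socs3, an inhibitor of cytokine receptor signalling, was at 15.5, 23.6 and 20.6 FPKM in C57-non-IR and at 57.1, 167 and 86.0 in C57-IR, and at 7.77, 32.0 and 29.8 in Slit2-non-IR and 101, 115 and 78.5 in Slit2-IR. Its difference was 2.22 (limma adjusted p = 0.00543). In Slit2-Tg hearts alone it passed with the replicate block (2.24, limma adjusted p = 0.0205) and not without it (0.0733). Socs1, which blocks JAK kinases, was at 0.909 to 2.46 FPKM in non-IR hearts and at 1.36 to 8.52 in IR hearts, and it did not pass (0.83, limma adjusted p = 0.160).

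Of 16 tested interferon-gamma targets, Cxcl10 and Icam1 rose over both genotypes (2.34% of all tested genes) and none fell (1.15%). Cxcl10, a chemokine that attracts T cells, was at 0.0782 to 0.205 FPKM in C57-non-IR and 1.35, 6.23 and 2.41 in C57-IR, and at 0.0428 to 0.193 in Slit2-non-IR and 2.78, 3.43 and 1.49 in Slit2-IR. Its difference over both genotypes was 1.69 (limma adjusted p = 0.00358), and in C57BL/6J hearts 1.77 (0.04997). The latter call held under 5 of 20 alternatives and was lost on leaving out any 1 of 10 libraries, that is, any except C57-IR replicate 1 and Slit2-IR replicate 3 (0.0566 to 0.182). Icam1, an endothelial adhesion molecule, was at 3.49 to 4.33 FPKM in C57-non-IR, 7.39 to 27.2 in C57-IR, 2.59 to 5.94 in Slit2-non-IR and 12.7 to 17.7 in Slit2-IR. Its difference over both genotypes was 1.70 (limma adjusted p = 0.00491). In Slit2-Tg hearts alone, Cxcl10 (1.61) and Icam1 (1.70) passed with the replicate block (limma adjusted p = 0.0369 and 0.0307) and not without it (0.0617 and 0.0707). Cxcl9 (0.41, 0.224) and the checkpoint ligand Cd274 (0.46, 0.125) did not pass. None of 19 tested type I interferon targets passed in either direction over both genotypes (2.34% of all tested genes higher, 1.15% lower).

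**Figure D5:**
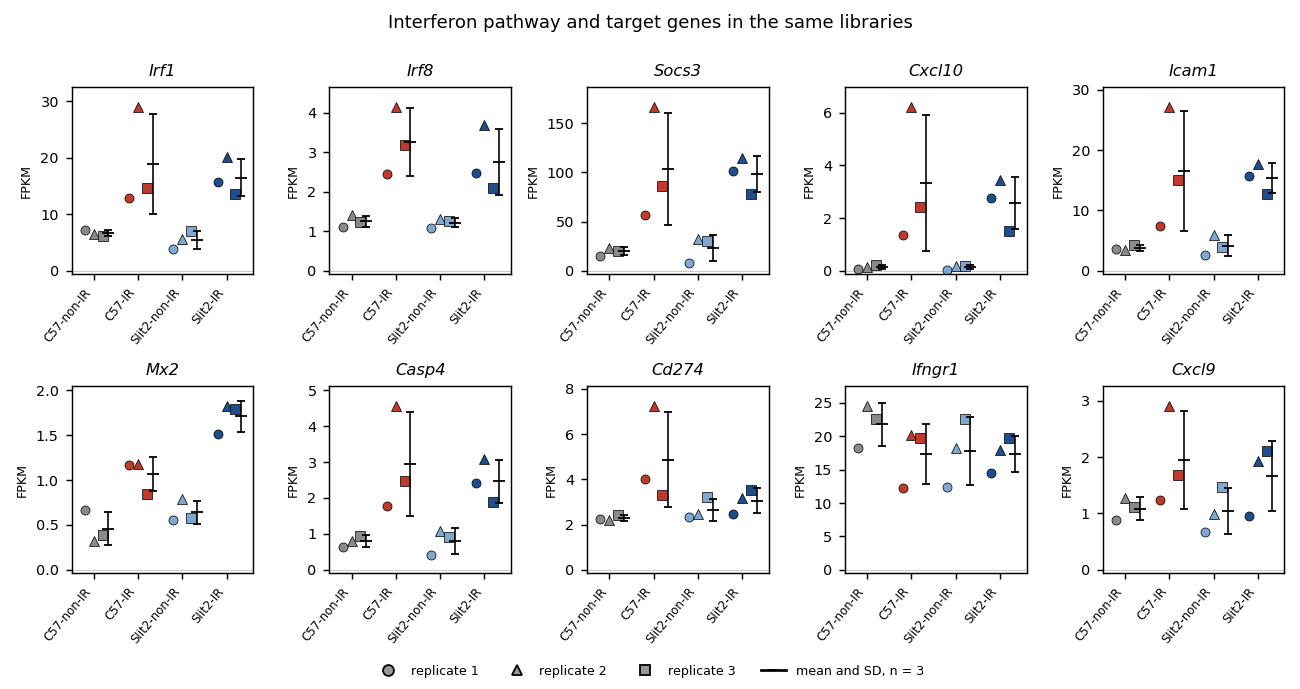
FPKM of 10 genes of the interferon pathway in the 12 libraries by group, with the mean and SD of 3 libraries. Irf1, Irf8, Socs3, Cxcl10, Icam1, Mx2 and Casp4 lie higher in both IR groups, while Cd274, Ifngr1 and Cxcl9 overlap between the 6 IR and the 6 non-IR libraries.

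The other GTPases did not share one direction. Of 20 related genes (IRG, GBP, Mx and giant GTPases), 16 passed the filter. Over both genotypes Mx2 rose (2.34% of all tested genes), and the IRG-like genes 9930111J21Rik2 and Gm5431 fell (1.15%). Mx2, an antiviral dynamin-like GTPase, was at 0.666, 0.320 and 0.384 FPKM in C57-non-IR, 1.17, 1.18 and 0.850 in C57-IR, 0.560, 0.792 and 0.579 in Slit2-non-IR and 1.51, 1.83 and 1.79 in Slit2-IR. Its difference was 0.61 (limma adjusted p = 0.00199) over both genotypes and 0.72 (0.0236) in Slit2-Tg hearts. This Slit2-Tg call was lost with no filter on low values (0.0771) and without Slit2-non-IR replicates 1, 2 or 3 or Slit2-IR replicates 1 or 2 (limma adjusted p of 0.0536 to 0.110). 9930111J21Rik2 ranged from 0.853 to 1.31 FPKM in non-IR hearts and from 0.576 to 0.837 in IR hearts (-0.28, limma adjusted p = 0.0184), and Gm5431 differed by -0.23 (0.0438). The call of 9930111J21Rik2 was lost without C57-non-IR replicates 2 or 3, C57-IR replicate 2 or Slit2-non-IR replicate 3 (0.0503 to 0.0537) and with no filter on low values (0.0735). That of Gm5431 held under 9 of 19 alternatives and was lost on leaving out any 1 of 8 libraries, C57-non-IR replicates 2 and 3, C57-IR replicates 1 and 2, Slit2-non-IR replicates 1 and 3 and Slit2-IR replicates 1 and 2 (0.064 to 0.105).

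Gbp9 and Gbp4, the most abundant of the other GBP genes, followed the members in part. Gbp4 was at 3.02, 2.47 and 1.96 FPKM in C57-non-IR, 2.45, 4.86 and 2.40 in C57-IR, 1.70, 2.14 and 2.46 in Slit2-non-IR and 1.19, 1.91 and 2.41 in Slit2-IR, again with its highest value in C57-IR replicate 2. Gbp9 was at 5.37, 6.26 and 5.19 FPKM in C57-IR and at 3.79, 4.06 and 4.74 in Slit2-IR, which did not overlap (3.44% of all tested genes in this direction). Its difference was -0.35 (limma adjusted p = 0.9996). The remaining tested genes of this list were F830016B08Rik, Gm12250, Gm12185, Gm4951, Gm4070, Gvin1, 9930111J21Rik1, Irgq, Gbp6, Gbp10 and Mx1, and none of them passed in any comparison. Of 13 partners of the GTPases in autophagy and inflammasome signalling, the caspase gene Casp4 rose (1.01, limma adjusted p = 0.00759) and the antibody receptor gene Trim21 fell (-0.39, 0.0175) over both genotypes. Of all tested genes, 2.34% rose and 1.15% fell there. Casp4 passed in Slit2-Tg hearts alone with the replicate block (0.94, limma adjusted p = 0.0406, against 0.116 without it). The call of Trim21 was lost with no filter on low values (0.0599) and without C57-non-IR replicate 2 (0.0517).

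Over all 45 pairs of members, the correlation of their deviations from the group means across 12 libraries had a median of 0.793 and ran from 0.0945 to 0.963. Without C57-IR replicate 2 the median was 0.576 and the range -0.453 to 0.955. Iigp1 then correlated negatively with 7 of the 9 other members. All pairs share the same libraries and scaling, so these values describe the libraries only. The 5 tested genes outside the members whose deviations were most like the members' mean deviation were Ifit1 (r = 0.954), Tap1 (0.939), Cks2 (0.931), H2-K1 (0.924) and Gbp4 (0.915). Without C57-IR replicate 2 the correlations of these 5 genes were 0.741 to 0.876. Tap1, a peptide transporter for antigen presentation, was at 2.17, 5.31 and 2.26 FPKM in C57-IR and at 1.81 to 3.33 in the 9 other libraries. H2-K1, a classical MHC class I heavy chain, was at 76.0, 162 and 99.0 FPKM in C57-IR and at 56.8 to 97.8 in the others, and Ifit1 was at 1.94, 4.71 and 2.92 and at 1.87 to 3.41. Cks2, a cell cycle gene, ranged from 0.643 to 1.62 FPKM over the 12 libraries, with its highest value in Slit2-IR replicate 2.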

How the data were processed

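Paired-end reads were obtained from 12 mouse heart libraries prepared with a NEBNext Ultra RNA kit and an Illumina HiSeq sequencer. Per the submitters' processing notes, HISAT2 (no version named) and the mm10 build were used. The counting tool, annotation release and use of strand were not given in the sources used here. The deposited values were FPKM per gene, with no column left unused (0 columns). The FPKM were whole multiples of a step per library for 100% of values within 0.05 read, and the steps followed median-of-ratios size factors, so reads were recovered (16601154 to 24841291 per library, median 21010128). Genes with at least the equivalent of 10 reads in 3 libraries and 15 reads in all were tested (15240). Tests were made with limma 3.58.1 in R 4.3.3, as its moderated test, letting the prior variance follow mean expression, of log2(FPKM + 1), a pseudocount that understates changes of low genes. A single fit of the 4 group means over all 12 libraries was used, with Benjamini-Hochberg adjustment over all tested genes and a threshold of 0.05. An exact permutation test of 3 against 3 libraries cannot give a p below 0.1 and was not used. Confidence intervals are unadjusted 95% intervals, and they and read counts cover no more than these libraries.

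The members, gene lists and tests were chosen with earlier results of these data known. Named genes were the 10 members, the tested genes of the other IRG, GBP, Mx and giant GTPases, pathway genes past the threshold in a pairwise comparison, further pathway genes (Ifng, Ifnb1, Ifngr1, Ifngr2, Irf1, Socs1, Cxcl9, Cxcl10 and Cd274), and the 5 genes most like the members. Socs3, Icam1, Casp4 and Trim21 fall outside this rule and were added after their values were seen. A further item under this rule is not reported here. Non-IR and IR were assigned from the second letter of the sample titles. The mouse Slit2 row had group means of 0.195 FPKM in C57-non-IR, 0.243 in C57-IR, 0.178 in Slit2-non-IR and 0.350 in Slit2-IR, the last resting on replicate 2 (0.813, against 0.153 and 0.0847 in replicates 1 and 3). Whether reads of the human transgene were counted in this row was not tested, so it was not used to check the labels. The labels tie same-numbered libraries to no common litter or day, and the main fit held no term for the replicate number. A block for it was run as an alternative only, as a common term over all 12 libraries that enters every comparison. As a description drawn from the same data, it was asked whether the deviations of every same-numbered pair correlated above 0.1. This held for Slit2-IR with Slit2-non-IR (0.291, 0.294 and 0.143) and with C57-IR (0.285, 0.153 and 0.362), not for C57-IR with C57-non-IR (0.295, 0.126 and 0.0833) or Slit2-non-IR with C57-non-IR (0.324, 0.0378 and 0.105). No libraries were duplicates, since counts within groups differed by 8.26 to 52.3 chi-square per degree of freedom. On simulated data for C57-IR against C57-non-IR over 15240 genes, the test recovered 91 of 100 genes changed 4-fold and 76 of 100 changed 2-fold, with 13 false calls. The changed genes were drawn only from genes with more reads, and no library was made to stand out as C57-IR replicate 2 does. These rates are therefore not the power to detect changes of the members. Motifs were searched in RefSeq promoter entries, and shared sequence in transcripts, with Python 3.11.15. Alternatives were a pseudocount of 0.1, other filters, other scalings, the replicate block, limma-voom on recovered reads, a robust prior variance, fits to only the libraries compared, and leaving out each library.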

Additional observations from a re-analysis of the deposited data

How the results depend on the processing

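No member passed the adjusted threshold in any of the 7 comparisons under any alternative run. The number of genes called over the whole table depended on the setting. In C57-IR against C57-non-IR it was 70, and 7 with no filter, 174 with the replicate block, 43 and 40 when scaled to the total of all genes or of non-mitochondrial genes, 32 with limma-voom, 9 with only the libraries compared, and 3 to 254 on leaving out single libraries. In Slit2-IR against Slit2-non-IR it was 80, and 19 with no filter, 202 with the replicate block, 53 and 50 with the scalings, 121 with limma-voom, and 4 to 180 on leaving out libraries. In Slit2-non-IR against C57-non-IR it was 6, and 10 with a pseudocount of 0.1, 11 with no filter, 3 with 10 reads in every library, 2 with the replicate block, and 1 to 14 on leaving out libraries. In Slit2-IR against C57-IR it was 7, and 3 with 10 reads in every library, 4 with only the libraries compared, and 4 to 12 on leaving out libraries. The interaction had 0, and 4 with no filter and 0 to 1 on leaving out libraries. IR over both genotypes had 532, and 299 with no filter and 329 to 713 on leaving out libraries. Genotype over both perfusions had 20, and 8 with 10 reads in every library and 12 to 30 on leaving out libraries. The cause of these shifts was not tested.

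Small member differences, none called, turned direction. In Slit2-IR against Slit2-non-IR, Gbp2 and Gbp3 became -0.00558 and -0.0545 when scaled to all genes and -0.0193 and -0.0659 when scaled to non-mitochondrial genes. In Slit2-non-IR against C57-non-IR, Tgtp1 became -0.0125 with a pseudocount of 0.1 and -0.0153 with limma-voom. The interaction of Tgtp2 became 0.0035 and 0.0192 under the same alternatives, and Gbp3 over both genotypes became -0.0144 and -0.0107 under the scalings. The scalings moved the median of all genes by at most 0.07. Some differences of low members were larger with limma-voom, though none was called. Tgtp1 was 0.89 against 0.49 in the main fit in C57-IR against C57-non-IR, and -0.87 against -0.44 in Slit2-IR against C57-IR. Gbp5 was -0.81 against -0.50 in Slit2-IR against Slit2-non-IR.

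On leaving out single libraries, these log2 differences crossed 0. In C57-IR against C57-non-IR they were Gbp5 (-0.18 to 0.10), Gbp7 (-0.17 to 0.0326), Tgtp2 (-0.0745 to 0.83) and Gbp3 (-0.0806 to 0.30). In Slit2-IR against Slit2-non-IR they were Tgtp1 (-0.13 to 0.24), Gbp2 (-0.0932 to 0.19) and Gbp3 (-0.22 to 0.22). In Slit2-non-IR against C57-non-IR they were Tgtp1 (-0.14 to 0.15), Gbp5 (-0.0135 to 0.24), Gbp7 (-0.0896 to 0.11), Igtp (-0.28 to 0.0266), Iigp1 (-0.0345 to 0.40) and Gbp2 (-0.0274 to 0.22). In Slit2-IR against C57-IR they were Iigp1 (-0.49 to 0.28) and Tgtp2 (-0.75 to 0.15). In the interaction they were Tgtp2 (-0.44 to 0.46), Irgm1 (-0.36 to 0.0341), Iigp1 (-0.67 to 0.10) and Gbp3 (-0.34 to 0.11). Over both genotypes they were Irgm2 (-0.0177 to 0.25) and Gbp3 (-0.0517 to 0.17), and over both perfusions Iigp1 (-0.16 to 0.23) and Gbp2 (-0.28 to 0.0037). Members below an unadjusted p of 0.05 ranged over the alternatives from 0 to 5 in C57-IR against C57-non-IR and from 1 to 4 in Slit2-IR against C57-IR.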
